A study of Mus musculus with 17 samples.

Results

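D3 embryonic stem cells (ESCs) and the outgrowths obtained from them after 21 days of differentiation were compared over all mature microRNAs (miRNAs) in a small RNA sequencing study of 2 mouse ESC lines. D3 is an established mouse line. The comparison takes the 3 libraries labelled D3 day 21 and the 3 labelled D3 ES (day 0), 6 of the 14 libraries with values and of the 17 samples labelled. Day 0 cells were undifferentiated and were grown without a feeder layer in serum with LIF, the cytokine that holds mouse ESCs in the undifferentiated state. For the outgrowths, embryoid bodies were formed in hanging drops, and bodies and outgrowths were kept without LIF in medium with retinoic acid (RA), a supplement of insulin, transferrin and selenium (ITS) and the N2 supplement. The 2 groups share the line and differ in LIF, in these agents, in culture form and in days of culture, so the parts of these differences cannot be told apart. The labels name no sorting, so a day 21 library is read as a mix of the cells in the outgrowth. No label tells if the replicates came from separate cultures, so the spread among the libraries of a group may be technical. In the main fit each p-value sets the difference of the days only against such spread, estimated over all 14 libraries with values. In such bulk samples fewer cells of a type and less RNA per cell cannot be told apart.

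A miRNA is a short RNA cut from a hairpin precursor, and it pairs with target mRNAs mainly through its seed, the bases from position 2 to 8. Either arm of the hairpin can give the mature miRNA (5p or 3p). In mouse ESCs the miR-290 cluster supplies most copies of a seed that is shared with the miR-302 cluster and is known for its role in the ESC cell cycle. The let-7 family, whose maturation is blocked in ESCs by Lin28, is known to accumulate as cells differentiate. The miRNAs of muscle, neurons, connective tissue and gut are used as markers of those tissues, and some are encoded inside genes of them.

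Mature sequences (RefSeq, GRCm38.p6, 5′ to 3′, seed in capitals) are given first for the sets in which members with 1 seed moved in different directions. The miR-181 set comes from different transcripts: miR-181a-5p and miR-181b-5p from chromosomes 1 and 2 (miR-181a-5p at chr1:137966468-137966490, + strand, intron of Gm4258, with a second copy at chr2:38852741-38852763 opposite an intron of Nr6a1), miR-181c-5p and miR-181d-5p from an intron of Nanos3 (chr8:84178924-84178945 and chr8:84178759-84178781, − strand).
miR-181a-5p: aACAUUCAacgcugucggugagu
miR-181b-5p: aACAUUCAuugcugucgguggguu
miR-181c-5p: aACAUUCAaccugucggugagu
miR-181d-5p: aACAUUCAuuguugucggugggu
The next set is the ESC seed, shared by miR-290 cluster members on chromosome 7 (miR-295-3p at chr7:3220815-3220837, + strand, opposite an exon of Nlrp12) and miR-302 cluster members on chromosome 3 (miR-302d-3p at chr3:127545665-127545687, + strand, opposite an intron of Larp7).
miR-291a-3p: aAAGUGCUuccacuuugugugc
miR-294-3p: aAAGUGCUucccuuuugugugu
miR-295-3p: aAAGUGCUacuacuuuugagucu
miR-302b-3p: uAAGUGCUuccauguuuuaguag
miR-302d-3p: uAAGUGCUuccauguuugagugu
The seed of miR-16-5p, a broadly expressed miRNA known to restrain the cell cycle, is carried by miR-322-5p on chromosome X (chrX:53054306-53054327, − strand, between genes) and by miR-497a-5p on chromosome 11 (chr11:70234730-70234751, + strand, between genes).
miR-16-5p: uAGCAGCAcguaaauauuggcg
miR-322-5p: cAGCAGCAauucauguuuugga
miR-497a-5p: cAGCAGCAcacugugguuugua
The arms of miR-335 (chr6:30741314-30741336 for 5p and chr6:30741354-30741375 for 3p, + strand, in an intron of the imprinted gene Mest) are shown because the arm that led at day 0 was not the one that led at day 21.
miR-335-5p: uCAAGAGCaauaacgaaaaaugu
miR-335-3p: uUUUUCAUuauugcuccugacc
Of the 1033 miRNAs in the table, 873 matched a RefSeq entry by name.

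Recovered miRNA reads numbered 56377 to 129486 per library at day 0 and 547213 to 743039 at day 21. The deposited values are reads divided by 1 factor per library. Their totals averaged 59866 ± 11700 at day 0 and 227803 ± 50952 at day 21 (SD, n = 3 each), 3.81-fold apart. For that reason each change is given on the deposited scale and on a relative scale, on which the 6 libraries were divided by median-of-ratios factors taken from the 360 miRNAs above 0 in all of them. A change on the relative scale is a change against the typical miRNA among those 360, not among all miRNAs tested. The factors moved day 21 against day 0 by 1.504 in log2 units, and less where the pseudocount weighs on low values. The median log2 change over the 521 miRNAs tested was 1.69 as deposited and 0.44 on the relative scale. A value of 3 reads, used as the floor for a miRNA at 0, averaged 1.89 at day 0 and 1.02 at day 21. Low day 0 levels were the least precise, since 39.5% of the 521 miRNAs had fewer than 10 reads over the 3 day 0 libraries together. Floors cover counting error only, because PCR copies are not separate molecules.

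The miRNome of the outgrowths differed from that of the ESCs for most miRNAs tested. As deposited, 340 miRNAs (65.3%) were higher at day 21 and 53 (10.2%) lower at a limma adjusted p of at most 0.05. On the relative scale 328 were called (63%), 202 of them higher (38.8%) and the rest lower (24.2%), and all 202 were also higher as deposited. The 3 libraries of each day did not overlap for 79.3% of the miRNAs as deposited and for 69.9% on the relative scale, 43.4% higher and 26.5% lower at day 21. Equal column totals in place of the median of ratios gave 34.0% higher and 30.3% lower, and equal totals over all miRNAs but miR-10a and miR-10b gave 36.5% and 27.3%. Direction was lower on both scales for 53 miRNAs (10.2%), and 15 (2.88%) were higher as deposited and lower on the relative scale. Relative changes ran from −6.11 to 7.92 in log2 units, with 135 rises and 61 falls past 4-fold and 53 rises and 9 falls past 16-fold. The miRNAs that rose on both scales held 12.7% of the miRNA signal at day 0 and 69.0% at day 21. Those that fell on the relative scale went from 70.6% to 18.1%. A count of 44 miRNAs tested had no read in any day 0 library, and 42 of these were among the rises. These miRNAs, and others with a few day 0 reads, were kept through their level at later days, so their change was set in part by the filter.

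**Figure D1:**
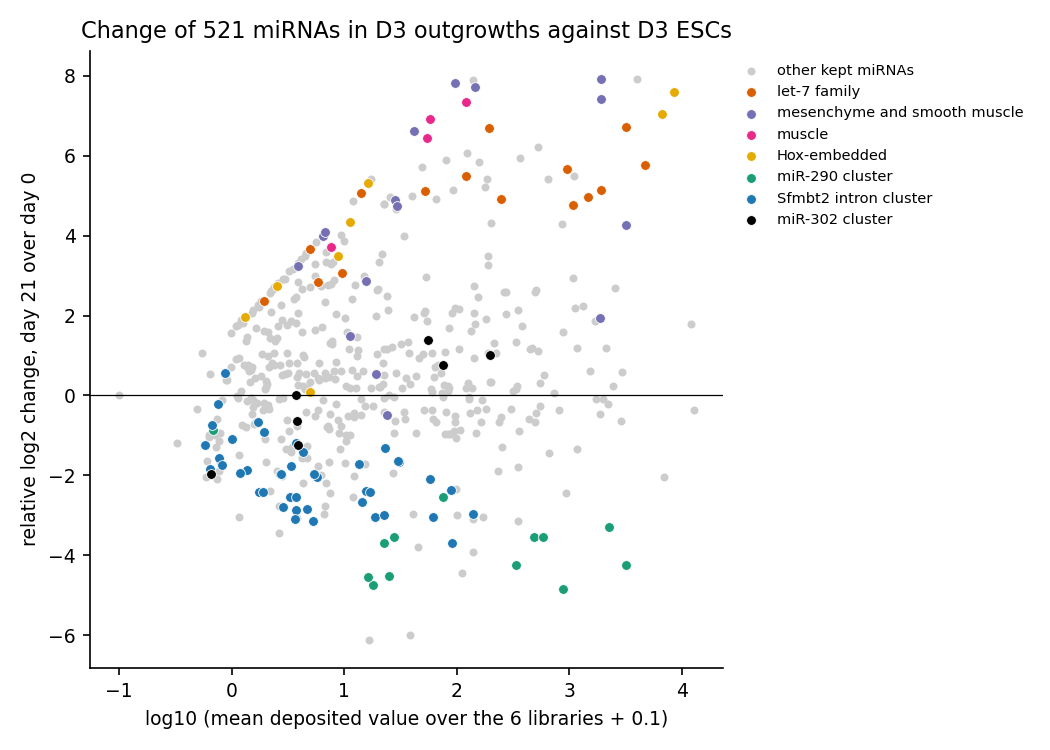
Each point is 1 of 521 miRNAs tested. The x axis is log10 of the mean deposited value over the 6 libraries plus 0.1, and the y axis is the relative log2 change of day 21 over day 0. Rises reach 7.92 and falls −6.11, and let-7, muscle and Hox-embedded miRNAs all lie above 0, mesenchyme miRNAs mostly above it and miR-290 and Sfmbt2 cluster miRNAs mostly below it.

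The make-up of the signal changed by whole groups of miRNAs. At day 0 the miR-290 cluster, the Dlk1-Dio3 region, the miR-183 cluster and the miR-17-92 cluster with its paralogs held 22.1%, 28.7%, 14.5% and 7.84% of the signal. At day 21 they held 1.13%, 16.1%, 2.64% and 2.805%. Hox-embedded miRNAs (0.119% to 13.2%), let-7 (0.341% to 12.1%) and mesenchyme and smooth muscle miRNAs (0.770% to 7.88%) took their place. The signal was also spread over more miRNAs, since the 5 most abundant held 46.3% ± 1.54 at day 0 and 34.97% ± 0.893 at day 21 (SD, n = 3 each). These shares hold inside each library and do not depend on its factor. Entries with the look of rRNA or tRNA fragments, which can rise where RNA is degraded, moved with the day as well. The summed relative level of the 7 entries was 520 to 630 at day 0 and 89.2 to 112 at day 21. On the relative scale 3 of the 7 fell and none rose, beside 24.2% lower and 38.8% higher over all 521. Their part in the other changes was not tested.

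**Figure D2:**
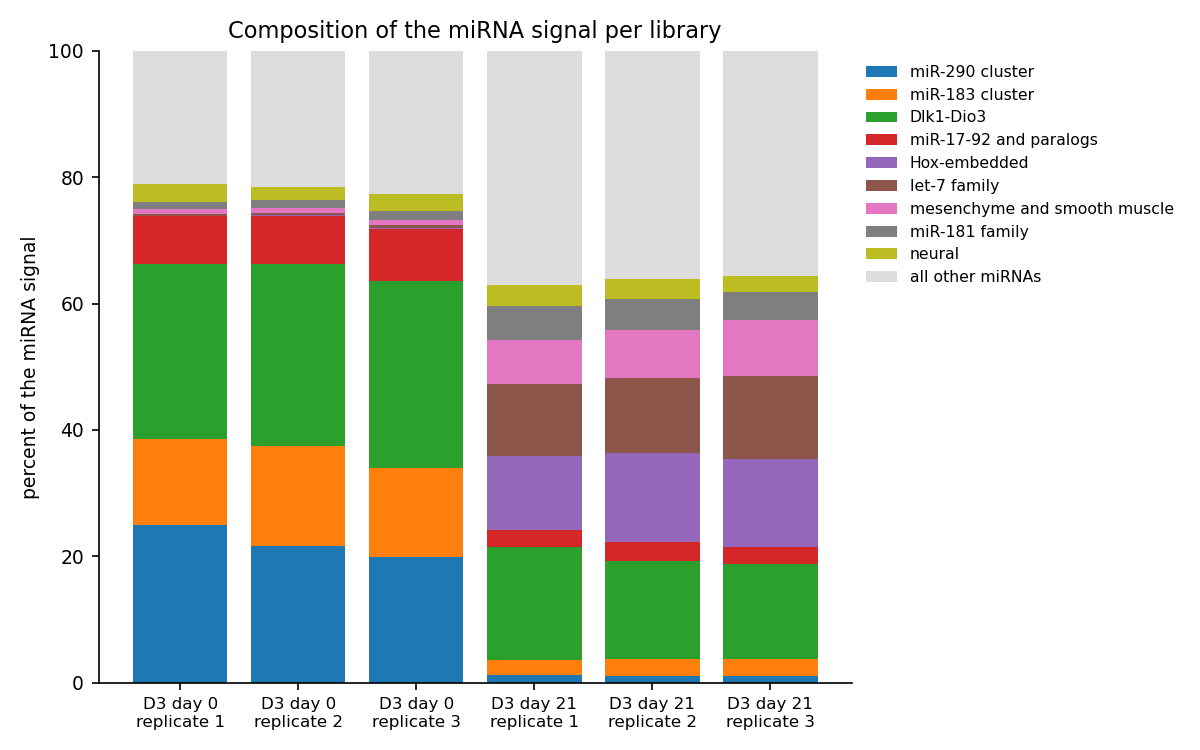
Stacked bars give the percent of the miRNA signal of each of the 6 libraries that falls to 9 groups of miRNAs and to all others. The 3 day 0 bars are led by the Dlk1-Dio3 region and the miR-290 cluster, and the 3 day 21 bars by Dlk1-Dio3, Hox-embedded and let-7 miRNAs in similar shares.

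The miRNAs that mark ESCs were high at day 0 and low in the outgrowths. Of the 13 miR-290 cluster miRNAs tested, 12 fell on both scales and 1 (miR-291b-5p, with 4 reads over the day 0 libraries) was not past the threshold. The median relative log2 change was −3.69, against 0.44 for all miRNAs tested. Falls over all 521 were 24.2% on the relative scale and 10.2% as deposited. miR-295-3p, the most abundant of them, had values of 6426, 6516 and 3807 in day 0 replicates 1, 2 and 3 and of 638, 846 and 988 at day 21. No day 21 library reached the lowest day 0 library, and the relative log2 change was −4.24 ± 0.27 (SE, limma adjusted p = 2e-10). Day 21 libraries were all below day 0 libraries for 11.7% of the miRNAs tested as deposited and for 26.5% on the relative scale. miR-293-3p fell furthest among the abundant members: it had 1645, 1816 and 1356 at day 0 and 142.8, 140 and 197 at day 21 (relative log2 −4.83 ± 0.18). miR-292a-5p went from 4394, 3866 and 2370 to 931, 952 and 1103 (relative log2 −3.29 ± 0.16). The cluster was still read at day 21, with 7275 reads of miR-295-3p over the 3 libraries, so the outgrowths were low in these miRNAs and not without them.

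The miR-302 cluster, which carries the same seed as the miR-290 cluster and is known from epiblast and early differentiating cells, did not go with it. miR-302d-3p had 59.5, 73.3 and 43.3 at day 0 and 248, 322 and 444 at day 21, and every day 21 library was above every day 0 library on both scales. Its relative log2 change was 1.01 ± 0.19 (limma adjusted p = 0.00016). Day 21 libraries were all above day 0 libraries for 67.6% of the miRNAs tested as deposited and for 43.4% on the relative scale. miR-302b-3p rose by 1.38 ± 0.34. miR-302a-3p rose by 0.76 ± 0.28 (limma adjusted p = 0.024), a call that was lost without day 21 replicate 2 (0.78, adjusted p = 0.052), day 21 replicate 3 (0.71, 0.071) or day 0 replicate 3 (0.59, 0.10) and with equal column totals (0.34, 0.35). Of the 7 miRNAs of the cluster tested, 3 rose and 1 fell on the relative scale, equal column totals gave 2 rises and 2 falls, and 4 rose and none fell as deposited. Over all 521 miRNAs tested, 38.8% rose and 24.2% fell on the relative scale. At day 7 the cluster held 0.0220% of the signal (n = 2 libraries), against 0.179% ± 0.00683 at day 0 and 0.251% ± 0.0128 at day 21 (SD, n = 3 each). Hox-embedded miRNAs held 65.5% of the day 7 signal, which leaves smaller shares for all other groups. The day 7 share therefore does not tell if the level of the cluster fell.

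Other groups that were abundant in the ESCs fell on the relative scale. Falls made up 24.2% of all 521 miRNAs tested on that scale and 10.2% as deposited. The miR-183 cluster on chromosome 6, known from sensory cells and from ESCs, fell in 6 of 6 members with a median log2 change of −2.12. Its leading member, miR-182-5p, had 8104, 10643 and 6268 at day 0 and 4184, 5599 and 7392 at day 21, so the days overlapped as deposited (log2 −0.55, not past the threshold) and did not overlap on the relative scale (−2.05 ± 0.13, limma adjusted p = 2e-10). The miR-17-92 cluster and its paralogs, known to drive proliferation, fell in 16 of 25 members on the relative scale with no rise. As deposited 9 fell and 7 rose. In the cluster on chromosome 14, from Mir17 to Mir92-1, 7 of 8 fell on the relative scale (as deposited 1 fell and 2 rose), with relative log2 changes from −3.14 (miR-92a-1-5p) to −0.53 and a median of −0.97. In the paralog cluster on chromosome X, from Mir363 to Mir106a, 5 of 7 fell on either scale, with relative changes from −3.79 (miR-18b-5p) to −1.10 and a median of −2.34. The difference between the clusters was not tested. miR-92a-3p, whose sequence both clusters encode, fell by 2.45 ± 0.17. In the large Sfmbt2 intron cluster (miR-297, miR-466, miR-467 and miR-669 miRNAs, which share near-identical sequences and are uncertain one by one), 34 of 42 fell when taken relative and 18 as deposited, with none higher on either scale. miR-467c-5p had 149, 165 and 131 at day 0 and 22.6, 34.5 and 40.2 at day 21 (relative log2 −3.70 ± 0.17).

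The let-7 family rose throughout. All 15 members tested were higher on both scales, with a median relative log2 change of 5.06, or 4.97 with the 3 members at 0 in every day 0 library set to the change that 3 reads per library would give. Those 3 could not fall. Rises over all 521 miRNAs tested were 38.8% on the relative scale and 65.3% as deposited. let-7i-5p, from chromosome 10, had 16.6, 20.5 and 24.2 at day 0 and 4613, 5721 and 8806 at day 21 (relative log2 6.73 ± 0.20, limma adjusted p = 6.6e-15). let-7a-5p, the most abundant, went from 56.9, 55.0 and 67.5 to 6926, 9047 and 12439 (5.76 ± 0.17). The 9 members that share the let-7 seed rose by 4.77 to 6.73 in relative log2 units. The seed as a whole went from 0.336% ± 0.0743 to 11.96% ± 0.880 of the signal (SD, n = 3 each). Since let-7a-5p differs from let-7c-5p, let-7e-5p and let-7f-5p by 1 base each, the split among these members depends on how reads were assigned.

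miRNAs that share transcripts with let-7 rose with it. Of 9 miR-99 and miR-125 miRNAs tested, 8 rose on the relative scale, against 38.8% of all 521. miR-99a-5p, from an intron of Mir99ahg on chromosome 16 beside let-7c-1, had 0, 0.539 and 0 at day 0, which is 1 read in all, and 189, 284 and 358 at day 21. miR-100-5p went from 1.04, 2.16 and 9.16 to 207.9, 352 and 500 (relative log2 5.22 ± 0.52). miR-125b-5p, known from neurons and muscle, went from 2.59, 3.77 and 5.83 to 627, 684 and 871 (5.93 ± 0.25), and its relative miR-125a-5p from 120, 103 and 68.3 to 1926, 1852 and 2406 (2.93 ± 0.16). Neither miRNA overlapped between the days, which was so for 79.3% of all miRNAs tested as deposited and for 69.9% on the relative scale. miR-125b-5p made up 2.12% to 7.86% of the sum of both at day 0 and 24.6% to 27.0% at day 21. The seed of both is also carried by miR-351-5p of chromosome X, a miRNA of no list and chosen after its values were seen, which rose from 21.7, 18.9 and 11.7 to 2068, 2115 and 2382 (5.49 ± 0.20) and was then as abundant as miR-125a-5p.

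Hox-embedded miRNAs lie between or inside the Hox genes, which set position along the body axis and respond to retinoic acid. Of 8 tested, 7 rose on the relative scale and 8 as deposited, and 3 of the 8 had no read at day 0 and could not fall. Rises made up 38.8% of all 521 miRNAs tested on the relative scale and 65.3% as deposited. miR-10b-5p (chr2:74726074-74726096, + strand, intron of Hoxd3 and Hoxd4) had 25.4, 32.3 and 32.5 at day 0 and 12051, 16783 and 22098 at day 21, a relative log2 change of 7.59 ± 0.21 (limma adjusted p = 6.6e-15). miR-10a-5p (chr11:96317186-96317208, + strand, between genes) rose by 7.04 ± 0.21 and differs from it by 1 base. The miR-615 and miR-196 miRNAs were read at far lower levels. miR-615-3p went from 0, 0.539 and 0 to 24.6, 21.5 and 20.3 (4.33 ± 0.43), and miR-196b-5p from 0.518, 0.539 and 0 to 14.9, 18.3 and 17.9 (3.49 ± 0.39). miR-196a-5p, at 7.31, 5.60 and 9.15 at day 21 and 3.62, 2.16 and 1.67 at day 0, was the member not past the threshold on the relative scale (0.10 ± 0.34, limma adjusted p = 0.81).

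miRNAs of mesenchyme and smooth muscle gained the largest share among the tissue markers. Of 16 tested, 14 rose and none fell on the relative scale (13 and 1 if column totals are made equal), with a median log2 change of 4.17, or 3.36 with the 5 members at 0 at day 0 set to the floor. Those 5 could not fall. Shares over all 521 miRNAs tested on the relative scale were 38.8% higher and 24.2% lower. miR-214-3p (chr1:162223438-162223459, + strand, exon of Dnm3os) had no read at day 0 and values of 152.8, 163 and 260 at day 21, at least 101-fold higher than the day 0 floor as deposited. miR-199a-5p from the same transcript had 0, 0 and 0.833 at day 0, 1 read in all, and 218.2, 264 and 394 at day 21. The 3p arm, miR-199a-3p, has the same sequence as miR-199b-3p. The values of the 2 entries were 2719, 3393 and 5382 and 2750, 3373 and 5428 at day 21, and at day 0 they were 3.62, 5.39 and 6.66 and 5.69, 8.08 and 8.33. Reads of the 2 entries cannot be told apart by sequence. miR-143-3p, a miRNA of smooth muscle, went from 113, 121 and 101.6 to 4087, 6654 and 8184 (relative log2 4.26 ± 0.18, limma adjusted p = 7.4e-13), and its cluster partner miR-145a-5p from 1.04, 1.08 and 0 to 46.2, 59.3 and 70.4 (4.74 ± 0.53). miR-140-3p, a miRNA of cartilage, was not past the threshold on the relative scale (0.54 ± 0.31, limma adjusted p = 0.14).

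Heart and skeletal muscle miRNAs rose from almost no reads, and they differed most among the day 21 libraries. The 4 tested had at most 2 reads over the day 0 libraries and were kept through their level at later days, which fixed their direction in part. All were higher on both scales, beside 38.8% of all 521 miRNAs on the relative scale and 65.3% as deposited. miR-208b-3p, which lies inside an intron of Myh7, a heart myosin gene (chr14:54975710-54975731, − strand), had 1.04, 0 and 0 at day 0 and 117, 365 and 245 at day 21. miR-1a-3p had no read at day 0 and 50.5, 203.2 and 91.5 at day 21, and miR-133a-3p 0, 0.539 and 0 and then 54.1, 176 and 99.0. miR-499-5p, from an intron of the myosin gene Myh7b, reached 8.63, 15.6 and 20.3. For the first 3, replicate 2 was highest and replicate 1 lowest. On the relative scale the highest library exceeded the lowest 3.38-fold for miR-1a-3p, 2.72-fold for miR-133a-3p and 2.61-fold for miR-208b-3p, the 3 widest ranges among the 244 miRNAs with at least 50 reads in each day 21 library, whose median was 1.27-fold. Without replicate 2 or any other single library, the relative log2 change of miR-1a-3p stayed between 6.38 and 7.25 and that of miR-208b-3p between 6.97 and 8.06. At 0.215% ± 0.119 of the signal (SD, n = 3), the 4 were a small part of the outgrowth. miR-206-3p, known from skeletal muscle, had values of 0.332, 0 and 0.398 at day 21 and was not tested.

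Neural miRNAs moved in both directions. Of 26 tested, 15 rose and 3 fell on the relative scale, with a median log2 change of 1.66, or 1.02 with 4 members at 0 at day 0 set to the floor. Those 4 could not fall. Across all 521 miRNAs tested, 38.8% rose and 24.2% fell on the relative scale. miR-9-5p, a miRNA of neural progenitors, had 5.18, 16.2 and 12.5 at day 0 and 910, 1380 and 1602 at day 21 (relative log2 5.41 ± 0.29, limma adjusted p = 1.6e-11). miR-219a-2-3p, of the miR-219 family known from oligodendrocytes, went from 0.518, 1.08 and 1.67 to 222, 267 and 254 (6.07 ± 0.32), and miR-218-5p, known from motor neurons, from 1.55, 0.539 and 1.67 to 79.0, 150 and 157 (4.91 ± 0.45). By contrast miR-124-3p, the most abundant miRNA of mature neurons, had 3.98, 2.95 and 3.98 at day 21 against 0, 0 and 1.67, and its relative change was not past the threshold (1.44 ± 0.77, limma adjusted p = 0.11). miR-128-3p, also known from neurons, stood at 99.0, 106 and 122.5 against 42.4, 45.8 and 25.0 (0.07 ± 0.21, limma adjusted p = 0.78). miR-7a-5p, known from neurons and from endocrine pancreas, fell from 261, 286 and 159 to 38.2, 44.8 and 43.7 (−3.91 ± 0.23).

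Markers of gut, liver and pancreas were low in level and mostly higher at day 21. Of 11 endoderm miRNAs tested, 9 rose on the relative scale and none fell (median log2 2.05, or 0.94 with 6 members at 0 at day 0 set to the floor). Those 6 could not fall and were kept through their level in other libraries, which fixed their direction in part. Shares over all 521 miRNAs tested on the relative scale were 38.8% higher and 24.2% lower. miR-375-3p, known from pancreatic islets and other endocrine cells, had 13.5, 10.8 and 9.997 at day 0 and 360, 401 and 343 at day 21 (relative log2 3.48 ± 0.24, limma adjusted p = 5.6e-10). The pancreatic miRNAs miR-216a, miR-216b and miR-217 had no read at day 0. At day 21 they reached at most 13.0, the value of miR-216b-5p in replicate 2. miR-192-5p, of gut and liver, went from 33.1, 66.3 and 34.2 to 163, 227 and 328 (0.94 ± 0.22). miR-122-5p, the leading liver miRNA, reached 17.3, 26.5 and 11.9 from 1.04, 1.62 and 1.67 (1.93 ± 0.63, limma adjusted p = 0.012), and its call was lost without day 21 replicate 2 (1.65, adjusted p = 0.061). miR-215-5p stood apart between libraries, with 2.99, 2.95 and 41.0 at day 21 and no read at day 0.

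Epithelial, endothelial and blood markers did not share 1 direction. The background is 38.8% higher and 24.2% lower over all 521 miRNAs tested on the relative scale, and 65.3% and 10.2% as deposited. In the miR-200 family, which keeps epithelial cells epithelial, none of 8 members from both miR-200 clusters rose on the relative scale. miR-429-3p had 63.7, 77.6 and 49.98 at day 0 and 148, 203.2 and 278 at day 21, higher as deposited and not past the threshold on the relative scale (0.19 ± 0.16, limma adjusted p = 0.32). The epidermal miRNAs rose: miR-203-3p from 5.18, 7.01 and 1.67 to 63.8, 74.0 and 171 (2.96 ± 0.44), and miR-205-5p from 139, 123.4 and 104 to 820, 688 and 826 (1.17 ± 0.18). Over the 11 epithelial miRNAs tested, 2 rose and 2 fell on the relative scale, equal column totals gave 2 rises and 5 falls, and 8 rose as deposited. miR-126a-5p, made from the endothelial gene Egfl7, rose from 47.6, 52.3 and 29.2 to 329, 641 and 553 (2.04 ± 0.25), and its 3p arm by 1.68 ± 0.23. Of 8 blood miRNAs tested, 5 were higher and 2 lower as deposited and 3 higher and 3 lower on the relative scale. miR-150-5p, known from lymphocytes, had the largest fall of the 521 miRNAs at this pseudocount, from 34.7, 34.0 and 28.3 to 0.996, 0.590 and 0 (−6.11 ± 0.36, limma adjusted p = 7.8e-11), while miR-223-3p of myeloid cells went from no read to 4.65, 5.01 and 6.76. The red cell miRNA miR-451a was nearly absent, at 0 in every day 0 library and 0.332, 0.590 and 0.398 at day 21.

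miRNAs with the same seed diverged in the miR-181 set shown above. miR-181a-5p had 9.83, 11.3 and 13.3 at day 0 and 7396, 7819 and 9008 at day 21, a relative log2 change of 7.92 ± 0.25 (limma adjusted p = 1.8e-14). It was the largest rise at this pseudocount, and other settings gave up to 11.14 for miR-214-3p and up to 10.30 for miR-99a-5p, which had 0 and 1 read at day 0, against up to 8.16 here. miR-181b-5p, its neighbour in both loci, went from 6.21, 4.85 and 3.33 to 917, 1019 and 1194 (6.21 ± 0.24). The Nanos3 pair behaved differently. miR-181c-5p had 307, 420 and 269 and then 578, 660 and 826, higher as deposited (log2 1.06) and lower on the relative scale (−0.44 ± 0.14, limma adjusted p = 0.011), a call lost without day 0 replicate 2 (−0.36, adjusted p = 0.058). miR-181d-5p had 361, 385 and 325 and then 551, 601 and 767 (0.83 as deposited, −0.67 ± 0.16 relative). Within a library the split does not depend on scaling: miR-181a-5p was 2.62% to 4.72% of the sum of miR-181a-5p and miR-181c-5p at day 0 and 91.6% to 92.8% at day 21. The main source of this seed was the Nanos3 pair at day 0 and the miR-181a and miR-181b loci at day 21.

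The same held in part for the ESC seed and the miR-16 seed. Of the sum of miR-302d-3p and miR-295-3p, miR-302d-3p made up 0.918% to 1.12% at day 0 and 27.6% to 31.0% at day 21. The 5 miRNAs matched to a sequence with this seed, without miR-302a-3p, which had no match, together went from 9.59% ± 1.12 to 0.577% ± 0.0277 of the signal (SD, n = 3 each). Of the miR-16 seed, miR-322-5p had 7.25, 7.55 and 4.998 at day 0 and 282, 416 and 485.5 at day 21 (relative log2 4.33 ± 0.20). miR-497a-5p had 26.9, 35.6 and 31.7 and then 17.3, 20.6 and 31.0 (−1.95 ± 0.27), with days that overlapped as deposited and did not on the relative scale. miR-322-5p made up 13.6% to 21.2% of the sum of the pair at day 0 and 94.0% to 95.3% at day 21. The main member, miR-16-5p, had 1122, 1282 and 943 and then 2891, 3675 and 4716, and was not past the threshold on the relative scale (0.23 ± 0.13, limma adjusted p = 0.13). The seed as a whole held 2.06% ± 0.128 and 1.92% ± 0.0636 of the signal. Of the 16 seeds with at least 3 miRNAs tested, 4 had members that rose and members that fell on the relative scale, and 6 had all members in 1 direction. Among all 521 miRNAs tested, 38.8% rose and 24.2% fell. The differences between members were not tested.

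**Figure D3:**
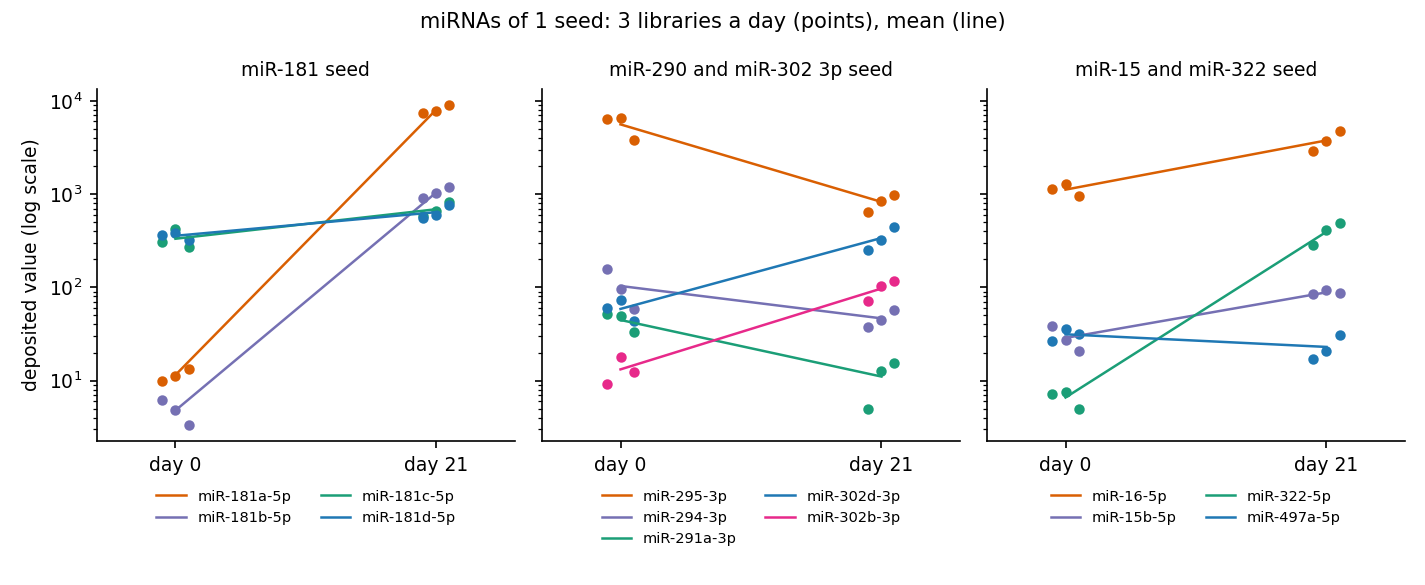
Points are the deposited values (log axis) of the 3 libraries of each day, lines join the means, and each panel holds miRNAs of 1 seed. In the left panel miR-181a-5p and miR-181b-5p cross miR-181c-5p and miR-181d-5p, in the middle miR-302b-3p and miR-302d-3p cross miR-294-3p, and on the right miR-322-5p crosses miR-497a-5p.

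Widely expressed families rose in part, beside 38.8% higher and 24.2% lower over all 521 miRNAs tested on the relative scale. Among the lists described here, rises were below that share in 4. These are miR-26 and miR-101, miR-130 and miR-301, miR-29, and the list of miR-103, miR-107, miR-191 and miR-425. Rises were also below it for the miR-15 and miR-322 family (3 of 11) and for miR-221 and miR-222 (1 of 3). Of 11 miR-30 miRNAs tested, 8 rose on the relative scale and none fell. miR-30a-5p had 43.5, 65.2 and 48.3 at day 0 and 638, 903 and 1344 at day 21 (relative log2 2.64 ± 0.20). Of 6 miR-148 and miR-152 miRNAs 4 rose, led by miR-148a-3p, which went from 253, 371 and 248 to 2182, 2394 and 4813 (1.85 ± 0.21). Of 6 miRNAs in the miR-26 and miR-101 list 2 rose, miR-26a-5p from 294.5, 300 and 195 to 3840, 4688 and 6019 (2.70 ± 0.16) and miR-26b-5p by 2.07, and the other 4 did not pass the threshold. miR-301a-3p rose by 2.23 ± 0.15 and miR-301b-3p by 2.19 ± 0.30, while the other 6 of the miR-130 and miR-301 list did not. In the miR-103, miR-107, miR-191 and miR-425 list, miR-107-3p rose by 2.59 ± 0.20 and miR-103-3p by 1.58 ± 0.19, and miR-425-5p fell by 0.67 (limma adjusted p = 0.0015). Of 3 miR-29 miRNAs, miR-29a-3p rose (1.87 ± 0.24). miR-34c-5p, a p53 target that is also known from ciliated cells, rose from 65.7, 84.1 and 61.6 to 428, 744 and 896 (1.73 ± 0.23). Its relative miR-34a-5p had 78.1, 109 and 67.5 and then 136, 174 and 217.9 (−0.45 ± 0.19, limma adjusted p = 0.044), a call lost without any 1 library but day 0 replicate 1 (log2 −0.47 to −0.35, adjusted p up to 0.15). That call was also lost with no filter (limma adjusted p = 0.062), a prior without trend (0.083) or TMM factors of the 6 libraries (−0.30, 0.082).

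**Figure D4:**
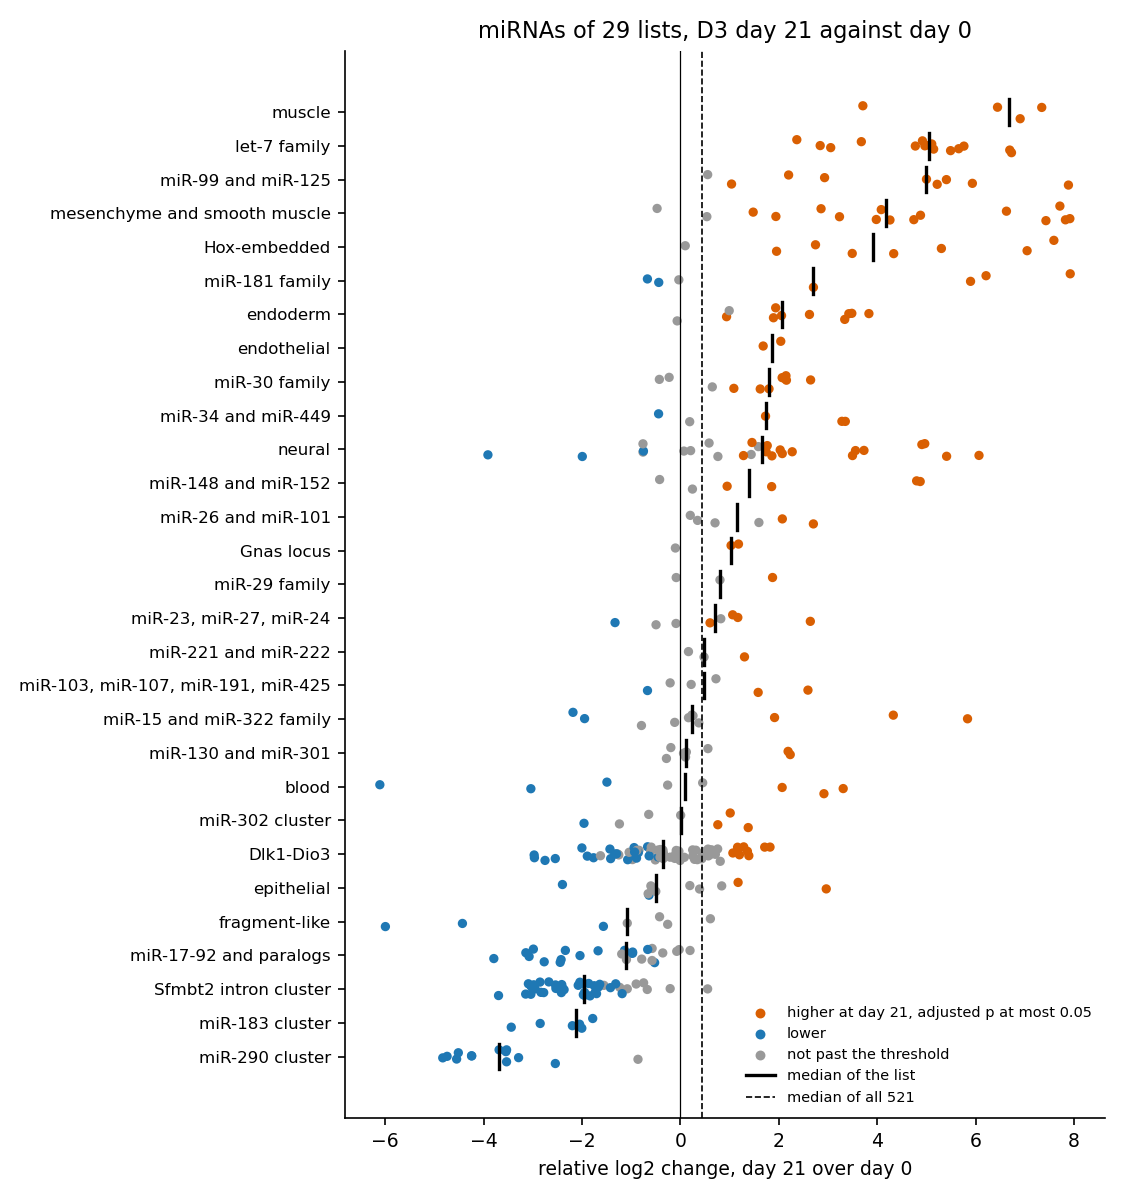
Points are the relative log2 changes (x axis) of the miRNAs tested in each of 29 lists, coloured by whether they passed the threshold, with the list median as a bar and the median of all 521 (0.44) as a dashed line. All members of the let-7 and muscle lists lie on the side of rises, and the miR-290, miR-183 and Sfmbt2 lists lie at the foot with medians of −3.69, −2.12 and −1.97.

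The Dlk1-Dio3 region, an imprinted stretch of chromosome 12 whose miRNAs come from the maternal allele, gave counts that depended on the scale. Of 78 miRNAs tested, 44 rose and 4 fell as deposited, 9 rose and 25 fell on the relative scale, and equal column totals gave 2 rises and 33 falls. All 521 gave 65.3% higher and 10.2% lower as deposited, 38.8% and 24.2% on the relative scale, and 34.0% and 30.3% with equal column totals. Its median relative log2 change was −0.35, against 0.44 for all miRNAs tested. miR-127-3p, the most abundant, had 7955, 9554 and 6608 at day 0 and 16549, 16157 and 20615 at day 21, higher as deposited (log2 1.15). Its relative change of −0.35 ± 0.13 (limma adjusted p = 0.025) lost the threshold without day 21 replicate 2 (−0.29), day 21 replicate 3 (−0.33), day 0 replicate 2 (−0.32) or day 0 replicate 3 (−0.35), with adjusted p up to 0.11, and with TMM factors of the 6 libraries (−0.20, adjusted p = 0.099). miR-541-5p had 2428, 2224 and 1596 and then 3391, 3729 and 4134 (0.87 as deposited, −0.64 ± 0.13 relative), and miR-411-5p turned in the same way (1.048 and −0.46 ± 0.13). miR-410-3p was not past the threshold on the relative scale (−0.09 ± 0.14). In share of the signal the region went from 28.7% ± 0.995 to 16.1% ± 1.52 (SD, n = 3 each), and it was still the group with the largest share at day 21 among the 29 lists.

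Outside the lists, 156 miRNAs were tested, of which 75 rose, 14 fell and 67 did neither on the relative scale. Over all 521 miRNAs tested, 38.8% rose and 24.2% fell. The most abundant miRNA of the outgrowths, miR-22-3p (chr11:75463772-75463793, + strand, exon of Mir22hg), known from heart and blood cells, had 2132, 2650 and 1893 at day 0 and 17158, 20461 and 28958 at day 21 (relative log2 1.79 ± 0.13, limma adjusted p = 9.6e-10). The others named here were chosen after their values were seen. miR-210-3p, induced by low oxygen, went from 26.4, 36.7 and 26.7 to 1405, 1459 and 2219 (4.29 ± 0.19). miR-146a-5p, of innate immune signalling, went from 1.55, 2.69 and 0.833 to 158, 183 and 211.5 (5.15 ± 0.30). miR-204-5p, known from the eye's pigment epithelium and the choroid plexus, went from 0.518, 0.539 and 0 to 28.9, 53.1 and 52.9 (4.80 ± 0.43). None of these overlapped between days, which was so for 79.3% of all miRNAs tested as deposited and for 69.9% on the relative scale. miR-672-5p fell from 283, 263 and 220 to 79.4, 102.4 and 81.5 (−3.03 ± 0.21).

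Of the 28 groups of neighbouring miRNA genes (gaps of at most 10 kb) with at least 3 miRNAs tested, 5 had all members called in 1 direction on the relative scale, and 3 had members called in both. Among all 521 miRNAs tested, 38.8% rose and 24.2% fell. On chromosome X, all 4 miRNAs tested of the group from Mir500 to Mir532 rose, with a median relative log2 change of 2.61. The largest of these rises was 2.99, that of miR-501-3p, which lies in an intron of Clcn5. Also on X, 6 of 7 between Mir450b and Mir322 rose and 5 of 7 between Mir363 and Mir106a fell. The former group holds miR-322-5p and miR-351-5p, whose values are given above, and its median relative log2 change was 3.60, against −2.34 for the latter.

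The ratio of the arms of a hairpin can be compared without any scaling between libraries, apart from the pseudocount of the fit. Of 87 hairpins with at least 20 reads of the pair in each library, 29 (33.3%) changed their ratio, 13 (14.9%) toward the 5p arm and 16 (18.4%) toward the 3p arm. Where an arm has few reads the ratio is set in part by the pseudocount. miR-10b, the call with the smallest p, and miR-10a were called toward 5p. Yet their 5p share went from 100% in each day 0 library to means of 99.97% and 99.75% at day 21. Their 3p arms had no read at day 0, so the pseudocount set these directions. With at least 10 reads of each arm in each library, a limit added after the data were seen, 34 hairpins were left and 12 changed, 5 toward 5p and 7 toward 3p. The clearest was miR-335, whose 5p arm made up 22.7%, 23.8% and 30.8% of the pair at day 0 and 67.6%, 61.7% and 65.1% at day 21 (log2 ratio change 2.41 ± 0.25, limma adjusted p = 1.0e-05). miR-335-5p rose from 53.3, 64.1 and 47.5 to 887, 884 and 1033 (relative log2 2.58 ± 0.19). miR-335-3p had 182, 205.4 and 107 and then 426, 548 and 554, and its relative change was not past the threshold (0.17 ± 0.17, limma adjusted p = 0.39). Among the 34, by the mean of each day, it was the one hairpin called in which the leading arm changed. In 1 day 0 library, replicate 3, the 5p arm of miR-485 made up 45.2% of its pair, with 62.7% and 64.6% in the others.

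In the Dlk1-Dio3 region the hairpins called differed in direction. miR-434 went from 32.5%, 40.7% and 39.7% of 5p to 14.8%, 18.1% and 18.5% (log2 ratio change −1.55 ± 0.24, limma adjusted p = 0.00021), and miR-434-3p rose on the relative scale (1.199 ± 0.18) where miR-434-5p did not pass the threshold (−0.35 ± 0.21). miR-410 went from 4.97%, 4.95% and 6.06% to 0.644%, 0.799% and 0.744% (−2.91 ± 0.39). miR-485 moved toward 5p, from 64.6%, 62.7% and 45.2% to 81.3%, 78.8% and 84.8%, a call lost without day 21 replicate 1, day 21 replicate 3 or day 0 replicate 3 (log2 ratio changes of 1.68, 1.51 and 1.304 against 1.66, adjusted p up to 0.12). miR-210 moved toward 3p while its level rose, from 38.6%, 28.4% and 30.4% of 5p to 16.7%, 14.2% and 11.9%. In miR-21a, a miRNA of proliferating and inflamed tissue, the 5p arm went from 94.97%, 95.2% and 95.4% to 98.8%, 99.2% and 99.1% (2.45 ± 0.37). In miR-294 it went from 24.9%, 33.8% and 37.7% to 7.32%, 10.6% and 10.6% (−2.05 ± 0.28). In miR-27b it went from 1.49%, 1.56% and 1.39% to 0.360%, 0.411% and 0.348% (−2.01 ± 0.30). Both of these hairpins had a library with fewer than 10 reads of an arm.

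**Figure D5:**
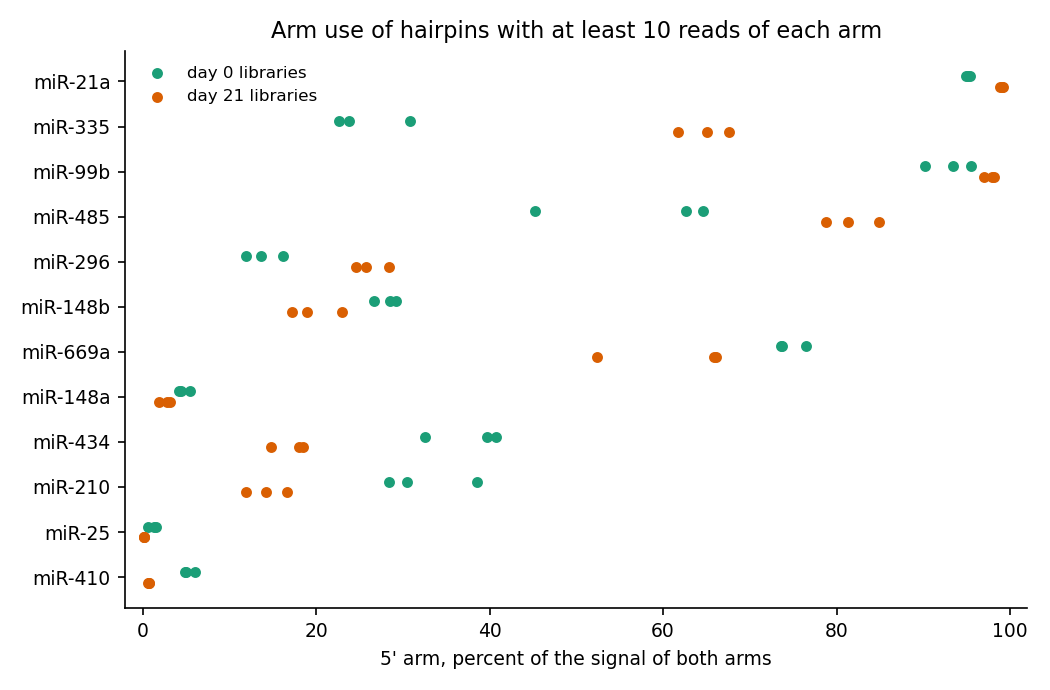
Points give the percent of 5p in the signal of both arms, per library, for the 12 hairpins called with at least 10 reads of each arm in each library. miR-335 crosses the middle, from 22.7% to 30.8% at day 0 to 61.7% to 67.6% at day 21, and the other hairpins keep their leading arm by the mean of each day, with 1 day 0 library of miR-485 at 45.2%.

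Some of the most abundant miRNAs did not pass the threshold on the relative scale. miR-92b-3p (4694, 4898 and 4682 at day 21 against 1369, 1052 and 979), miR-191-5p (2760, 3016 and 3656 against 1300, 1497 and 1062) and miR-25-3p (1881, 2611 and 3164 against 862, 1125 and 824) rose as deposited only. Their relative log2 changes were 0.58 ± 0.25, −0.21 ± 0.19 and −0.08 ± 0.13. The first was close to the threshold (limma adjusted p = 0.054). miR-92b-3p was called higher by edgeR (adjusted p = 0.032), by DESeq2 (0.0065), with TMM factors of the 6 libraries (0.73, 0.010), in the fit of the 6 libraries alone (0.030), without day 21 replicate 3 (0.73, 0.035) and without day 0 replicate 1 (0.70, 0.044). With equal column totals its change was 0.16 (adjusted p = 0.59). By contrast miR-191-5p and miR-25-3p were called lower with equal column totals (−0.63 and −0.50). In all, 123 miRNAs (23.6%) were higher as deposited with no call on the relative scale, and 70 (13.4%) were called on neither.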

How the data were processed

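Small RNA libraries of D3 ESCs at day 0 (n = 3) and of outgrowths at day 21 (n = 3) were taken from a table of 14 libraries. The deposited values are signal: reads per mature miRNA that the authors divided by 1 factor per library, with TMM named in the table's title. Per the submitters' processing notes, CASAVA, FastQC, Bowtie, Partek and mm10 were used, and rules for reads that match several miRNAs are not given in the sources used here. In every library 100% of values of at most 1000 reads came out whole when divided by the value of 1 read (tolerance 0.01 read), which recovered reads.

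The test covered 521 of the 1033 miRNAs, those whose average over the 14 libraries reached 5 per 1000000 of a column's sum, and used limma 3.58.1 (R 4.3.3): log2(value + 0.48), 5 group means, trended prior, 2-sided, Benjamini-Hochberg over all 521, threshold 0.05. Log2 changes, which understate those of low miRNAs, are given ± SE. The relative scale used median-of-ratios factors. Arm ratios were fitted as log2((5p + 0.48)/(3p + 0.48)). On simulated data 20.9%, 52.1% and 78.7% of 1.5-fold, 2-fold and 4-fold changes were recovered, and 2.97% of the calls were false. In the simulation 200 of the 521 miRNAs changed, as many up as down and by at most 4-fold, and the scaling was known. It therefore could not show errors that come from the scaling or from the larger, unbalanced changes of the real data. edgeR 4.0.16 and DESeq2 1.42.0 on recovered reads were alternatives, beside other pseudocounts, filters, scalings, priors and left-out replicates.

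Named miRNAs were the 8 with the largest relative change each way (above the median level, without overlap), the 5 most abundant of each group, up to 3 per list, the 5 most abundant that turned between scales or were not called, and the 6 hairpins with the smallest p. Other miRNAs named illustrate list members, seeds or neighbours and were chosen with their values known. Members and the 29 lists were chosen with earlier results of these data known. Sequences are from RefSeq (GRCm38.p6), and host genes from GENCODE (GRCm38). B8 day 21 was not analysed here.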

Additional observations from a re-analysis of the deposited data

How the results depend on the processing

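Calls moved most with the scaling and with filters that change how many miRNAs are tested, and are given as a percent of those tested. As deposited 65.3% were higher and 10.2% lower, with equal column totals 34.0% and 30.3%, and with totals equal over all miRNAs but miR-10a and miR-10b 36.5% and 27.3%. A filter 10 times as high left fewer miRNAs, of which 258 were called as deposited (88.1%, with 74.1% higher) and 73.04% on the relative scale (42.7% higher). With no filter 43.9% of 1033 were called as deposited (38.8% higher, 5.03% lower) and 34.9% on the relative scale (23.4% higher, 11.5% lower). Without a replicate 60.1% to 65.1% were higher and 8.64% to 10.4% lower as deposited (69.3% to 74.5% in all), and 36.1% to 38.8% and 21.5% to 23.2% on the relative scale (57.8% to 62.0% in all). edgeR called 38.6% higher and 26.7% lower on the relative scale, and DESeq2 35.5% and 24.6%.

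The 29 arm ratio calls (13 toward 5p, 16 toward 3p, 33.3% of 87) became 17 with a pseudocount of 0.1 times the main one (19.5%, 8.05% toward 5p and 11.5% toward 3p) and 44 with one 5 times as high (50.6%, 24.1% toward 5p). At least 100 reads of the pair left 13 of 40 (32.5%, 15.0% and 17.5%), and at least 10 reads in each arm 12 of 34 (35.3%, 14.7% and 20.6%). Without a replicate 26.4% to 32.2% were called, 12.6% to 14.9% toward 5p and 13.8% to 17.2% toward 3p. The arm ratio of miR-10a reversed with the smaller pseudocount (−0.81), and its 3p arm had no read at day 0. That of miR-10b, also without a 3p read at day 0, lost its call with that pseudocount (2.48, limma adjusted p = 0.068). Of the 93 named miRNAs, 76 kept their relative-scale call in every setting of that scale and with equal totals. In at least 1 of these settings 12 lost the call and 5 gained it, and none reversed. The deposited scale was not among these settings. Between the deposited and the relative scale 15 of the 521 miRNAs turned direction with a call on both, and the 5 most abundant of them are among those named.

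Whether the replicate numbers pair the samples is not given by the labels. Deviations of same-numbered libraries correlated at 0.125, 0.0588 and 0.0208. Of the 6 libraries, 3 (replicates 1 and 2 of day 21, replicate 1 of day 0) correlated best with their own number. With 3 libraries a day such values can neither show nor exclude a pairing. With a replicate block 66.2% were higher and 10.6% lower as deposited, 39.3% and 25.0% on the relative scale, and 35.6% of arm ratios changed. The block also called miR-92b-3p higher on the relative scale (0.58, limma adjusted p = 0.015), as did a pseudocount 5 times as high (adjusted p = 0.048). The prior without trend lost the call of miR-127-3p (adjusted p = 0.098). The smallest day 0 library held 56377 reads, so changes of miRNAs near 3 reads are the least certain.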
